A study of Mus musculus with 4 samples.

Results

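The 9 genes described here belong to retinoic acid metabolism, binding and signalling: Dhrs3, Aldh1a2, Stra6, Crabp1, Crabp2, Rara, Rarb, Rarg and Cyp26a1. They were picked by name from 25965 listed genes, and all 9 were found. The set was chosen because Dhrs3 was lower with both Smarca4 hairpins in these same libraries, so the measured hairpin values selected it, and every difference between a hairpin library and the control is given as a description with no test.

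RNA-seq was performed on 4 libraries of female mouse embryonic stem cells (mESCs), from FVB/NJ dams crossed to CAST/EiJ sires, in a study of X chromosome inactivation. All cells were expanded in 2i medium with LIF, which holds them in the naive state. The day 0 library came from undifferentiated, untransduced cells. The other 3 came from cells weaned into serum medium without LIF, an undirected differentiation, and harvested at day 6 after retroviral transduction on day 2 and puromycin from day 3. Nons cells received a non-silencing control hairpin. Smarca4.4 and Smarca4.6 cells each received a different hairpin against Smarca4, which encodes an ATPase of the nucleosome-remodelling BAF complex. No group was given added retinoic acid according to the labels or methods, but the retinoid content of the 2i and serum media was not stated. The day 0 library therefore differs from Nons by differentiation, medium, transduction and selection together, and these cannot be told apart. The genotype field of the labels calls every day 6 library, Nons included, a Smarcc knockdown, so the groups rest on the sample titles.

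Each group holds 1 library, so differences lack a replicate check and are given without p-values. The interval beside each difference is an exact 95% interval of the ratio of reads and covers counting error only. It compares libraries, not conditions. The day 0 library was the shallowest (18599402 reads) and the Smarca4.4 library the deepest (47143739 reads), and 3 reads, taken as the smallest level each depth can show, came to between 0.0636 and 0.161 CPM (reads scaled to the library total). The naive and core pluripotency markers (9 genes, none at 0) summed to 4462 CPM at day 0 and to between 857 and 1128 CPM at day 6. The smooth muscle markers (5 genes, with Acta2 at 0 at day 0) summed to 2.26 CPM at day 0, and to 1083 CPM in Nons, where all 5 exceeded 1 CPM, against 797 CPM with Smarca4.4 (4 of 5) and 681 CPM with Smarca4.6 (5 of 5). The sums of the neural (442 to 482 CPM), mesoderm (41.9 to 50.6 CPM) and endoderm (27.0 to 33.5 CPM) lists spanned narrower ranges at day 6, and those of trophectoderm and germ cell markers ran from 70.8 to 102 CPM and from 67.4 to 98.4 CPM.

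Smarca4, at chr9:21616169-21704230 on the plus strand (mm10), was measured at 7.93 log2 CPM at day 0, 7.84 in Nons, 7.04 with Smarca4.4 and 7.44 with Smarca4.6. Both hairpin libraries lay below both others. Smarca4.4 held 57.3% of the Nons level, and Smarca4.6 held 75.8%. The guide strands are shown because they target different places in the transcript, and the libraries that carried them held different Smarca4 levels. They are the 22 bases complementary to Smarca4 mRNA, in DNA letters, with the seed (bases 2 to 8) in capitals.

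Smarca4.4: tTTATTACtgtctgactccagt
Smarca4.6: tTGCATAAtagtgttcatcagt

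The Smarca4.4 target lies in the 3′ UTR, in exon 34 of 34 (chr9:21703327-21703348, GRCm38), and the Smarca4.6 target lies in coding exon 22 (chr9:21670504-21670525). Each full target matched transcripts of 1 gene, Smarca4. The seeds differ from one another.

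Retinoic acid is made from vitamin A in steps. Retinol enters cells with the help of Stra6, is oxidised reversibly to retinaldehyde, and is then oxidised irreversibly to retinoic acid by enzymes such as Aldh1a2. Dhrs3 returns retinaldehyde to retinol, Cyp26a1 breaks retinoic acid down, Crabp1 and Crabp2 carry it in the cytosol, and the receptors Rara, Rarb and Rarg bind DNA with retinoid X receptors to switch genes on. Several of these genes, among them Dhrs3, Rarb, Cyp26a1 and Stra6, are themselves known to be induced by retinoic acid, which in embryonic stem cells promotes differentiation and represses pluripotency genes.

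**Figure D1:**
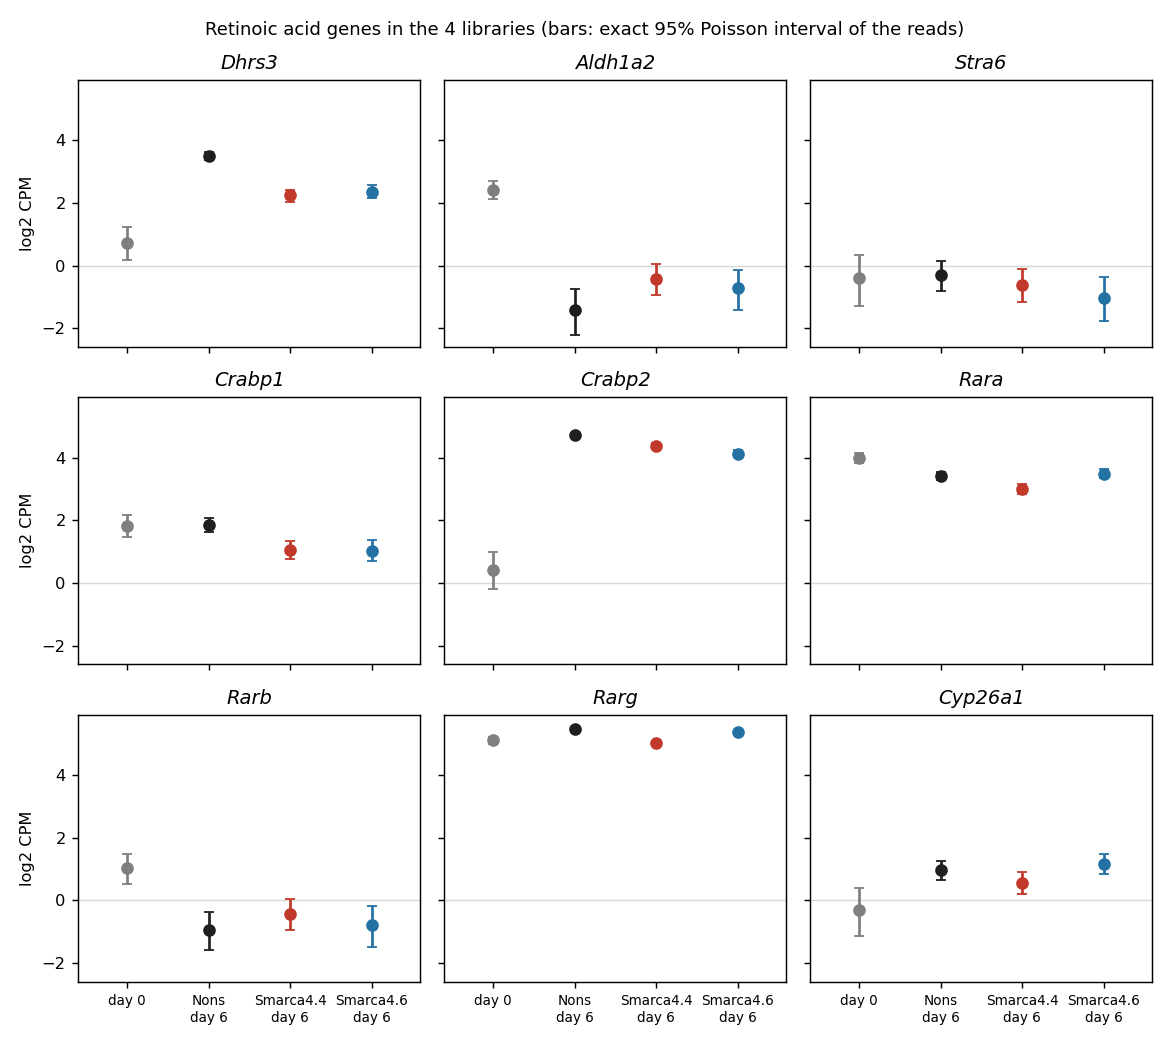
Levels of the 9 genes in the 4 libraries. The vertical axis is log2 CPM on 1 scale for all panels, each point is 1 library, and the bars are exact 95% Poisson intervals of the reads. Dhrs3 and Crabp2 have their highest point in Nons, Aldh1a2 and Rarb have theirs at day 0, and Stra6 lies below 0 in every library.

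Dhrs3 reduces retinaldehyde to retinol and so limits the formation of retinoic acid. It lies at chr4:144892827-144928209 on the plus strand and overlaps no other listed gene. Its level was 0.74 log2 CPM at day 0 (31 reads), 3.50 in Nons (517 reads), 2.24 in Smarca4.4 (223 reads) and 2.36 in Smarca4.6 (188 reads). The hairpin libraries lay between day 0 and Nons and close to each other. Nons was 6.78-fold above day 0, a log2 difference of 2.76 (2.24 to 3.33). Smarca4.4 held 41.9% of the Nons level, a log2 difference of -1.26 (-1.49 to -1.03), and Smarca4.6 held 45.6%, a log2 difference of -1.13 (-1.38 to -0.89). Measured against Nons, the level of Dhrs3 was thus lower than that of Smarca4 in both libraries, and the difference between the hairpins for Dhrs3 was -0.12 (-0.41 to 0.16) although Smarca4 itself differed between them by -0.40. Dhrs3 was the reason for the choice of the set because it was lower with both hairpins. A high place in an order by that fall follows from the choice, and nothing is read from it. Genes with a mean log2 CPM of at least 0 over the 4 libraries numbered 13264. Ordered by the smaller of the falls with the 2 hairpins, Dhrs3 stood at place 8 of these. The 4 nearest such genes on the chromosome (Gm13119, Pramef12, Vps13d and Tnfrsf1b) differed from Nons by between -0.10 and 1.35 with Smarca4.4 and between 0.020 and 0.43 with Smarca4.6. None of them fell as Dhrs3 did.

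Aldh1a2 oxidises retinaldehyde to retinoic acid and is the main enzyme of this step in the early embryo. It lies at chr9:71215789-71296243 on the plus strand. Its level was 2.41 log2 CPM at day 0 (99 reads), -1.43 in Nons (17 reads), -0.43 in Smarca4.4 (35 reads) and -0.73 in Smarca4.6 (22 reads). This order is the opposite of that of Dhrs3, with Nons lowest and the hairpin libraries between it and day 0. Nons was 14.3-fold below day 0 (log2 difference -3.84, -4.68 to -3.09). The difference from Nons was 1.00 (0.12 to 1.93) with Smarca4.4 and 0.70 (-0.28 to 1.70) with Smarca4.6, so the counting interval of the latter includes 0. All 3 day 6 values rest on at most 35 reads, and the mean log2 CPM of -0.044 placed the gene just below the filter.

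Stra6 is the cell surface receptor through which retinol is taken up from its carrier in serum. It lies at chr9:58063788-58153996 on the plus strand, where it overlaps Ccdc33 on the minus strand and Gm16131 on the same strand, and since the strand setting of the counting was not stated its reads are uncertain. Its level was -0.41 log2 CPM at day 0 (14 reads), -0.31 in Nons (37 reads), -0.60 in Smarca4.4 (31 reads) and -1.02 in Smarca4.6 (18 reads). It was low throughout. The difference between Nons and day 0 was 0.10 (-0.82 to 1.11), and the differences from Nons were -0.30 (-1.04 to 0.43) and -0.71 (-1.61 to 0.14) with Smarca4.4 and Smarca4.6. All 3 intervals include 0, so no difference was detectable at this depth.

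Crabp1 and Crabp2 are small cytosolic proteins that bind retinoic acid. Crabp2 hands the ligand to nuclear receptors, whereas Crabp1 keeps it in the cytosol and is linked to its breakdown. Crabp1 (chr9:54764748-54773110, plus strand) was measured at 1.83 log2 CPM at day 0 (66 reads), 1.85 in Nons (165 reads), 1.07 in Smarca4.4 (99 reads) and 1.04 in Smarca4.6 (75 reads). The hairpin libraries were thus lower than both other libraries, by about the same amount. Smarca4.4 held 58.2% of the Nons level (log2 difference -0.78, -1.15 to -0.41) and Smarca4.6 held 57.0% (-0.81, -1.22 to -0.41). The difference between the hairpins was 0.031 (-0.42 to 0.48). Between day 0 and Nons the difference was 0.023 (-0.40 to 0.46), whose sign turned under other scalings. Unlike Dhrs3, whose hairpin levels lay above day 0, Crabp1 was lower in the hairpin libraries than in undifferentiated cells as well.

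Crabp2 (chr3:87948666-87953376, plus strand) was measured at 0.43 log2 CPM at day 0 (25 reads), 4.73 in Nons (1214 reads), 4.37 in Smarca4.4 (976 reads) and 4.13 in Smarca4.6 (640 reads). All day 6 libraries lay far above day 0, and both hairpin libraries lay below Nons. Nons was 19.7-fold above day 0 (log2 difference 4.30, 3.73 to 4.94). Smarca4.4 held 78.0% of the Nons level (-0.36, -0.48 to -0.24) and Smarca4.6 held 66.1% (-0.60, -0.74 to -0.46). The library with more Smarca4 left therefore had less Crabp2, with a difference between the hairpins of 0.24 (0.094 to 0.39). The genes around Crabp1 (Dnaja4, Wdr61, Ireb2 and Agphd1) differed from Nons by -0.32 to 0.23 with Smarca4.4 and by -0.064 to 0.17 with Smarca4.6, and those around Crabp2 (Rrnad1, Isg20l2, Nes and Gpatch4) by -0.12 to 0.56 and 0.0027 to 0.94.

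The retinoic acid receptors are ligand-dependent transcription factors. Rara (chr11:98927818-98974942, plus strand) was measured at 3.99 log2 CPM at day 0 (296 reads), 3.42 in Nons (489 reads), 3.01 in Smarca4.4 (379 reads) and 3.50 in Smarca4.6 (413 reads). Smarca4.4 alone stood apart among the day 6 libraries. Nons was below day 0 by a log2 difference of -0.57 (-0.79 to -0.36), Smarca4.4 differed from Nons by -0.41 (-0.61 to -0.21) and Smarca4.6 by 0.083 (-0.11 to 0.27). Rarg (chr15:102234938-102257517, minus strand), the receptor typical of undifferentiated mESCs, was measured at 5.11 log2 CPM at day 0 (644 reads), 5.49 in Nons (2056 reads), 5.04 in Smarca4.4 (1549 reads) and 5.37 in Smarca4.6 (1513 reads). It spanned a narrow range over all 4 libraries. Rarg in Nons was above day 0 by 0.38 (0.25 to 0.51) on the log2 scale, and it differed from Nons by -0.45 (-0.55 to -0.36) with Smarca4.4 and by -0.12 (-0.21 to -0.020) with Smarca4.6. Both receptors were thus lower in Smarca4.4 than in Smarca4.6, by -0.49 (-0.70 to -0.29) for Rara and -0.34 (-0.44 to -0.23) for Rarg, and neither reached 1.5-fold.

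Rarb and Cyp26a1 are classic direct targets of the receptors, through a direct repeat of a 6-base element with 5 bases between the copies. Promoter sequence is shown for both because a repeat of this kind was found there, and in none of the other windows of the genes described here. No window of Crabp2 was available, so only 8 of the 9 genes were searched. Sequences are from RefSeq (GRCm38.p6), upstream of the annotated start, with the element copies in capitals.

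Rarb: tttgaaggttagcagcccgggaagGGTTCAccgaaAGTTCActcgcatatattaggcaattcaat
Cyp26a1: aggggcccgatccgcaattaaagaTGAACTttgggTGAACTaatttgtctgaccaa

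The Rarb stretch is chr14:16575489-16575553, read on the minus strand, with the repeat 53 to 37 bases before the start. The Cyp26a1 stretch is chr19:37697752-37697807, read on the plus strand, with the repeat on the opposite strand, 32 to 16 bases before the start, where it reads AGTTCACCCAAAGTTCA. The element was searched in the form AGGTCA, the form GGGTCA, the form AGTTCA and the form GGTTCA on both strands, in windows from 250 bases before to 50 after each start. A repeat with 5 bases between copies was found in 2 of 17 windows of 8 of the genes, and in 32 of 32851 windows (0.0974%) of all genes. Repeats with 1 or 2 bases between copies were in none of the 17 windows, against 0.222% and 0.268% of all windows. A match describes letters in a window, not a bound site.

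Rarb (chr14:16430842-16575472, minus strand) was measured at 1.03 log2 CPM at day 0 (38 reads), -0.93 in Nons (24 reads), -0.43 in Smarca4.4 (35 reads) and -0.80 in Smarca4.6 (21 reads). It was highest at day 0 and low in all day 6 libraries. Nons was below day 0 by a log2 difference of -1.96 (-2.76 to -1.19). The differences from Nons were 0.50 (-0.29 to 1.31) with Smarca4.4 and 0.13 (-0.78 to 1.04) with Smarca4.6, neither detectable at this depth. Cyp26a1 (chr19:37697808-37701528, plus strand), which hydroxylates retinoic acid for removal, was measured at -0.31 log2 CPM at day 0 (15 reads), 0.96 in Nons (89 reads), 0.57 in Smarca4.4 (70 reads) and 1.17 in Smarca4.6 (82 reads). The hairpin libraries lay on either side of Nons. Cyp26a1 in Nons was above day 0 by 1.27 (0.47 to 2.17), and it differed from Nons by -0.39 (-0.86 to 0.079) with Smarca4.4 and by 0.21 (-0.24 to 0.66) with Smarca4.6. The 2 genes with the repeat therefore differed in opposite directions between day 0 and Nons, and the counting intervals of their differences from Nons all include 0. Of the 31 genes whose windows held the repeat, 12 were in the table, and 2 of these passed the filter on low values, Cyp26a1 and Blvrb. Blvrb, a biliverdin reductase named after its values were seen, had log2 differences of 0.66 between day 0 and Nons and of -0.78 and -0.96 from Nons with Smarca4.4 and Smarca4.6.

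**Figure D2:**
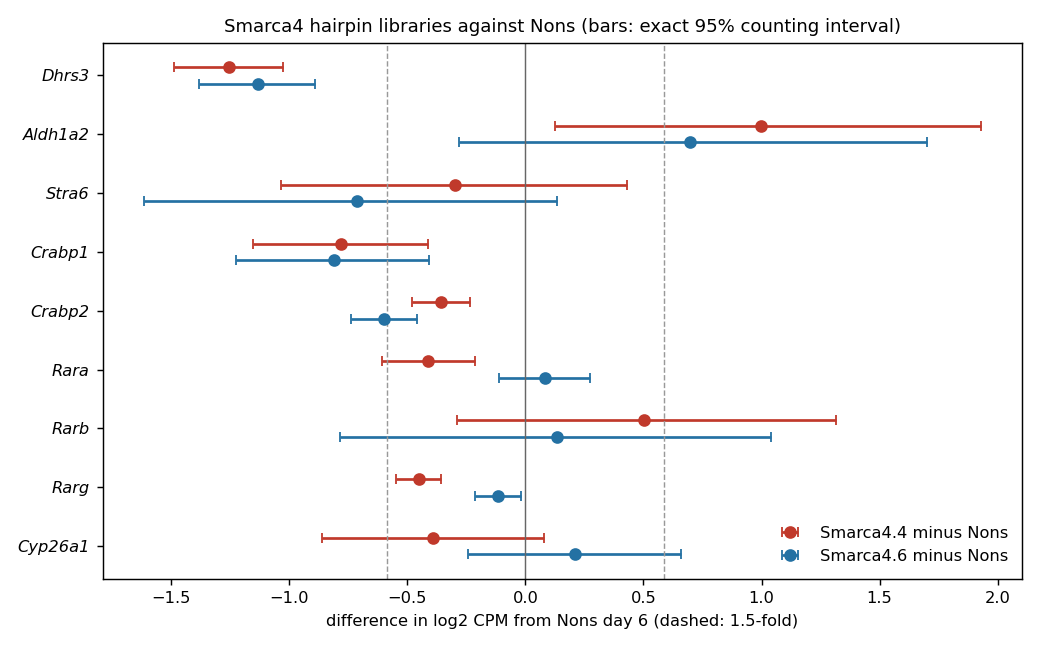
Difference in log2 CPM of each gene between a Smarca4 hairpin library and Nons at day 6. Points are single libraries, bars are exact 95% counting intervals, and dashed lines mark 1.5-fold. Dhrs3 lies beyond the line with both hairpins, Crabp1 points do too with intervals that cross it, and the Aldh1a2 points lie on the other side with wide intervals.

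Counted together, 6 of the 9 genes passed the filter of a mean log2 CPM of at least 0 (Dhrs3, Crabp1, Crabp2, Rara, Rarg and Cyp26a1), and Aldh1a2, Stra6 and Rarb did not. Between day 0 and Nons, 3 of the 9 were at least 1.5-fold higher (Dhrs3, Crabp2 and Cyp26a1), beside 28.4% of all genes passing the filter, and 2 were at least 1.5-fold lower (Aldh1a2 and Rarb), beside 22.4%. Aldh1a2 and Rarb did not pass the filter, so the latter share is not a like background for them. Over the 9 genes the median log2 difference was 0.10. Over the 6 that passed the filter it was 0.82, with 3 higher and none lower, and over all 13264 genes passing it the median was 0.031. A gene high in only some libraries can pass through those alone, so nothing is read from the 6.

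With Smarca4.4, 2 of the 9 were at least 1.5-fold lower than Nons (Dhrs3 and Crabp1), beside 2.37% of all genes, and 1 was higher (Aldh1a2), beside 4.03%. With Smarca4.6, 4 of the 9 were lower (Dhrs3, Crabp1, Crabp2 and Stra6), beside 3.83%, and 1 was higher (Aldh1a2), beside 5.68%. Both comparisons use the same Nons library, so a high or low value there moves both. With both hairpins, 2 of the 9 were at least 1.5-fold lower (Dhrs3 and Crabp1), beside 1.22% of all genes, and 1 was higher (Aldh1a2), beside 2.31%. All these shares are over genes passing the filter. Aldh1a2 and Stra6 did not pass it and had few reads, so the shares are not a like background for them. Among the 6 that passed, 2 were lower with Smarca4.4, 3 with Smarca4.6 and 2 with both, and none was higher. Since Dhrs3 was the reason for the choice, nothing is read from these counts. In direction alone, 5 of the 9 were below Nons with both hairpins (Dhrs3, Crabp1, Crabp2, Rarg and Stra6), 2 were above with both (Aldh1a2 and Rarb), and Rara and Cyp26a1 were on opposite sides. Of all genes passing the filter, 3989 of 13264 were below Nons with both hairpins and 6027 were above with both, and among the 6 that passed it 4 were below and none above. The median difference over the 9 was -0.39 with Smarca4.4 and -0.12 with Smarca4.6, beside medians of 0.038 and 0.064 over all genes passing the filter. Over the 6 that passed the filter the medians were -0.43 and -0.36. Dhrs3 enters the medians of the 9 and of the 6, so nothing is read from them. In the order by the smaller fall of the 2 hairpins, Crabp1 stood at place 59, Crabp2 at 585 and Rarg at 2303 of 13264. Between the hairpins, 1 of the 9 was at least 1.5-fold lower in Smarca4.4 than in Smarca4.6 (Cyp26a1, -0.60, -1.08 to -0.12), beside 1.88% of all genes, and none was higher, beside 2.59%. The cells were measured in bulk, so fewer cells of a type and less RNA per cell cannot be told apart. The smooth muscle sum was lower in both hairpin libraries than in Nons, as Dhrs3, Crabp1 and Crabp2 were. It also rose between day 0 and Nons, as Dhrs3 and Crabp2 did, whereas Crabp1 differed by 0.023. The sum was lower with Smarca4.6 than with Smarca4.4, as Crabp2 was, whereas Dhrs3 was not. The part of smooth muscle cells in these values was not tested.

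To compare levels between genes, reads were divided by the exon length of each gene and given as RPKM, which is CPM per kb of exon. At day 0 Rarg led at 8.13 RPKM, followed by Crabp1 at 4.42 and Rara at 3.65, whose counting intervals overlap, and then by Aldh1a2 at 2.35. Crabp2 at 1.02, Dhrs3 at 0.569, Cyp26a1 at 0.407 and Rarb at 0.388 RPKM followed, each overlapping the next, and Stra6 was last at 0.129. In Nons the order had changed at the top. Crabp2 led at 20.1 RPKM, followed by Rarg at 10.5, Crabp1 at 4.50 and Dhrs3 at 3.86, with the last pair overlapping. Rara followed at 2.45 and Cyp26a1 at 0.981 RPKM, and Aldh1a2, Stra6 and Rarb lay between 0.0996 and 0.164 with overlapping intervals. Crabp2 and Rarg held the first and second places with both hairpins too, at 15.7 and 7.71 RPKM in Smarca4.4 and 13.3 and 9.73 RPKM in Smarca4.6. Below them Dhrs3, at 1.62 and 1.76 RPKM, no longer exceeded Rara, at 1.84 and 2.59 RPKM. The lowest 3 genes at day 6 were Aldh1a2, Rarb and Stra6 in every library, at no more than 0.328 RPKM.

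Ratios within a library do not depend on its total. The per-length ratio of Crabp2 to Crabp1 was 0.230 at day 0 (0.139 to 0.369), 4.46 in Nons (3.79 to 5.28), 5.98 in Smarca4.4 (4.86 to 7.43) and 5.18 in Smarca4.6 (4.07 to 6.67). Crabp1 transcripts thus outnumbered those of Crabp2 at day 0 and were outnumbered in each day 6 library, and the intervals of the day 6 libraries overlap. The ratio of Dhrs3 to Aldh1a2, the enzymes that draw retinaldehyde towards retinol and towards retinoic acid, was 0.242 at day 0 (0.156 to 0.366), 23.5 in Nons (14.5 to 40.7), 4.93 in Smarca4.4 (3.44 to 7.25) and 6.61 in Smarca4.6 (4.24 to 10.8). Here the hairpin libraries lay between day 0 and Nons, and their counting intervals overlap neither. The genes were chosen because Dhrs3 was lower with both hairpins, so a ratio below that of Nons follows from the choice. At day 6 the ratio also rests on 17, 35 and 22 reads of Aldh1a2 in Nons, Smarca4.4 and Smarca4.6, and nothing is read from it. Transcript ratios do not measure enzyme activity or retinoid amounts. Among receptors, the ratio of Rarg to Rara was 2.23 at day 0, 4.31 in Nons, 4.19 with Smarca4.4 and 3.75 with Smarca4.6.

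**Figure D3:**
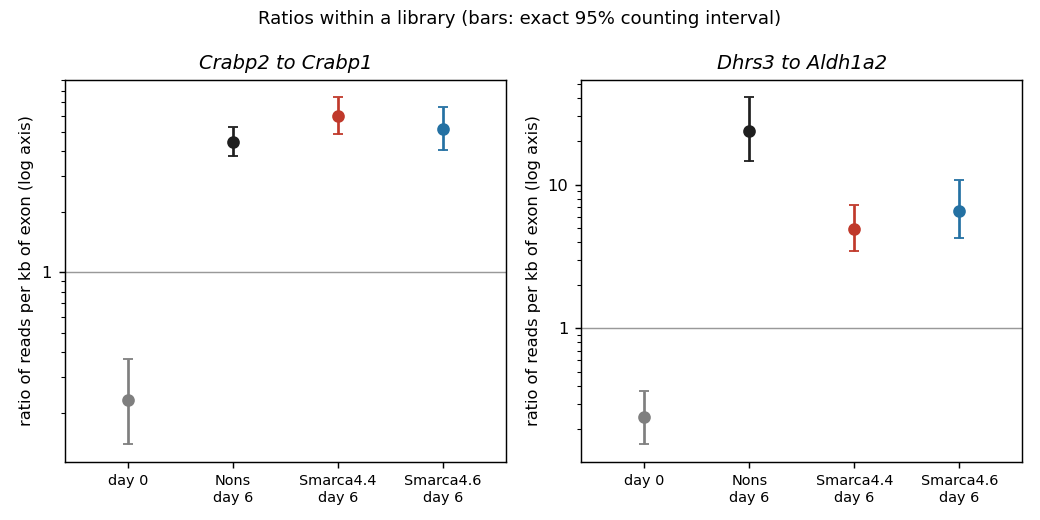
Ratio of Crabp2 to Crabp1 (left) and of Dhrs3 to Aldh1a2 (right) in each library, in reads per kb of exon, on log axes with a line at 1. Bars are exact 95% counting intervals. The left ratio is below 1 at day 0 and between 4.46 and 5.98 at day 6, and the right ratio is 23.5 in Nons, 4.93 with Smarca4.4 and 6.61 with Smarca4.6. The genes were chosen for the lower Dhrs3 with both hairpins, which enters the right ratio.

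The wider pathway was described with 34 other genes of retinoid uptake, storage, synthesis, breakdown, binding and signalling, of which 18 passed the filter. None of the 18 differed by 1.5-fold from Nons with Smarca4.4, where 4.03% of all genes passing the filter were higher and 2.37% lower. The median was 0.025. The largest differences upward were those of Fabp5 (0.37), a fatty acid binding protein that also binds retinoic acid, of the partner receptor Rxra (0.28) and of the coactivator Ncoa2 (0.26). Among the 3 largest downward were those of Rxrb (-0.20) and of the alcohol dehydrogenase Adh5 (-0.16). With Smarca4.6, 1 of the 18 was at least 1.5-fold higher, Fabp5 (0.93, 0.83 to 1.04), beside 5.68% of all genes. None was lower, beside 3.83%, and the median was 0.034. Fabp5, whose reads may be shared with near-identical pseudogenes, was measured at 5.30 log2 CPM at day 0, 4.80 in Nons, 5.17 with Smarca4.4 and 5.74 with Smarca4.6. Next above Nons with Smarca4.6 were the retinaldehyde reductase Dhrs4 (0.42) and Rdh5 (0.30), and below it were the coactivators Ncoa1 (-0.51), Ncoa3 (-0.35) and Kat2b (-0.20). Dhrs4 carries out the same kind of reaction as Dhrs3 and was not lower with either hairpin (0.025 and 0.42). Between day 0 and Nons, 3 of the 18 were higher, beside 28.4% of all genes, and 6 lower, beside 22.4%, with a median of -0.35. The largest differences upward were those of Rxrb (1.14), Dhrs4 (0.88) and the retinol dehydrogenase Rdh10 (0.63). Downward they were those of Kat2b (-2.41), Ncoa3 (-1.16) and Ncoa1 (-0.95). Between the hairpins none of the 18 differed by 1.5-fold, beside 2.59% of all genes higher and 1.88% lower in Smarca4.4.

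Genes known to be induced by retinoic acid in embryonic cells were described with a list of 22, of which 4 passed the filter. Of these 4, 3 were at least 1.5-fold higher than Nons with Smarca4.4, beside 4.03% of all genes, 1 was with Smarca4.6 (Pax6), beside 5.68%, and none was lower. Centring on the median of all genes, median-of-ratios scaling and a pseudocount of 1 CPM each left 2 with Smarca4.4 and 0 with Smarca4.6. Tgm2, a transglutaminase, was measured at 3.52, 4.30, 4.997 and 4.61 log2 CPM at day 0 and in the Nons, Smarca4.4 and Smarca4.6 libraries, with differences from Nons of 0.70 (0.58 to 0.82) and 0.31 (0.18 to 0.45). The neural factor Pax6, which the neural marker list also holds, was measured at 3.73, 2.88, 3.50 and 3.48 log2 CPM, with differences of 0.62 (0.42 to 0.82) and 0.60 (0.39 to 0.81). The receptor tyrosine kinase Ret differed by 0.089 (-0.39 to 0.57) and 0.33 (-0.16 to 0.81), with both intervals including 0. None of these 3 genes was lower than Nons in either library, but they do not stand for the list. Over all 22, 3 were at least 1.5-fold lower with both hairpins and 3 were higher with both. The shares of genes passing the filter were 1.22% and 2.31%, and most of the 22 did not pass it. The 3 lower genes held at most 14 reads in any day 6 library, and the higher ones other than Pax6 at most 12. Over the 4 genes the medians were 0.66 and 0.32, beside 0.038 and 0.064 over all genes passing the filter. Over all 22 the medians were 0.081 and 0.24. With Smarca4.4, 8 of the 22 were at least 1.5-fold higher and 5 lower, beside 4.03% and 2.37% of genes passing the filter. With Smarca4.6, 6 were higher and 6 lower, beside 5.68% and 3.83%. The 4 are what a filter on these same libraries left, and the other 18 had low mean levels. Nothing is therefore read from these counts or medians. Between day 0 and Nons, 2 of the 4 were higher (Ret 1.89, Tgm2 0.78), beside 28.4% of all genes. The other 2 were lower, Pax6 (-0.85) among them, beside 22.4%. Among the 18 that did not pass, Cdx1 fell from 546 reads at day 0 to 1 in Nons, with 11 in Smarca4.4 and 12 in Smarca4.6, and Stra8 from 322 reads to 12, 13 and 1.

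**Figure D4:**
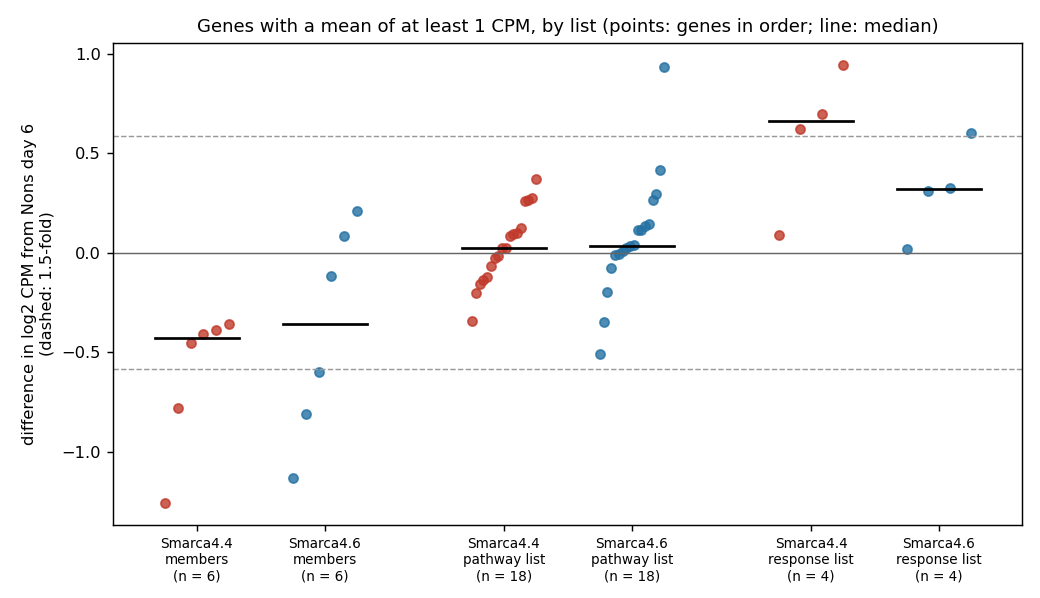
Difference in log2 CPM from Nons of the genes with a mean log2 CPM of at least 0, for the 9 genes described here (members, 6 shown), the pathway list (18) and the response list (4), with Smarca4.4 in red and Smarca4.6 in blue. Points are genes in order of their value, lines are medians, and dashed lines mark 1.5-fold. The medians are -0.43 and -0.36 for the members, 0.025 and 0.034 for the pathway list and 0.66 and 0.32 for the response list. Over all 22 genes of the response list, most of them not shown, the medians are 0.081 and 0.24. Over all 9 members the medians are -0.39 and -0.12. The members were chosen for the lower Dhrs3 with both hairpins, which enters their medians.

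The genes whose pattern over the 4 libraries was most like that of Dhrs3, by the Euclidean distance between log2 CPM values centred on each gene's mean, were Gm7694 (0.111), Slc2a4 (0.290), Cox4i2 (0.321), Palm2 (0.373) and Trim63 (0.374). Gm7694 was at -0.52 log2 CPM at day 0, 2.21 in Nons, 1.04 with Smarca4.4 and 1.22 with Smarca4.6. None of these is a member of the retinoid lists. Slc2a4 is the insulin-responsive glucose transporter of muscle and fat, and Trim63 is a muscle ubiquitin ligase. For Crabp1 the nearest were Hpcal1 (0.0930), Ephb3 (0.112), Hyal1 (0.151), Synm (0.159) and Glrx (0.199), and for Crabp2 they were Cxcl16 (0.0709), Prkar1b (0.128), Hsd17b11 (0.151), AC104834.1 (0.157) and Arhgap29 (0.165). With 4 libraries, such distances describe these libraries only.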

How the data were processed

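Paired-end reads were trimmed (trim_galore), aligned by the authors to mm10 masked at FVB and CAST variants (hisat2 per the labels, tophat or hisat2 per the methods), and quantified per gene in SeqMonk. The deposited values are log2 CPM per gene and library, both alleles together, with the library total as denominator. The strand setting was not given in the sources used here. Values were back-transformed to whole reads (at least 99.99% of values whole within 0.1 of a read), and 0 reads had been written as 0.9 of 1 read. These reads gave totals of 18599402 (day 0), 45759793 (Nons), 47143739 (Smarca4.4) and 36495575 (Smarca4.6) reads, exact Poisson intervals of levels and Clopper-Pearson intervals of differences. Such intervals and floors hold counting error alone, because PCR copies and mates of a pair are not separate molecules.

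Differences are of deposited values. Genes with a mean log2 CPM of at least 0 (13264 of 25965) form the background, and 1.5-fold was the threshold, in either direction. With 1 library per group no test was run. The genes, the pathway, response and marker lists and the threshold were chosen with earlier results of these data known. All 9 genes are named, with at most the 3 largest differences each way from the pathway and response lists (2 genes that this rule names are not reported here) and the 5 genes nearest to Dhrs3, Crabp1 and Crabp2. Marker genes follow fixed lists. Exon lengths are from GENCODE M21, promoters from RefSeq, and guides from the study's oligonucleotide list, taken as the 22 bases before the sequence that ends all its hairpin oligonucleotides. The calculations were tested on simulated reads. Python 3.11.15 was used with numpy 2.4.6, pandas 2.3.3, scipy 1.17.1 and matplotlib 3.10.9.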

Additional observations from a re-analysis of the deposited data

Results flagged for a closer look

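Rara and Cyp26a1 were picked out because the 2 hairpins against the same gene placed them on opposite sides of Nons. Rara was lower in Smarca4.4 than in Smarca4.6 by a log2 difference of -0.49 (-0.70 to -0.29), with -0.41 and 0.083 from Nons. The counting interval of the latter (-0.11 to 0.27) includes 0, so the side of Nons on which Smarca4.6 lies is not settled. Cyp26a1 was lower by -0.60 (-1.08 to -0.12), with -0.39 and 0.21 from Nons, both of whose counting intervals include 0. Each hairpin has 1 library, so the difference between hairpins was not tested.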

How the results depend on the processing

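No paired analysis was possible because no group has more than 1 library, and without that library the group is empty. Among the 6 genes that passed the filter, the number past 1.5-fold depended on thresholds. Between day 0 and Nons it was 3, and became 5 with no filter and 1 when the filter was raised to a mean of 3 log2 CPM (the stricter filter). With Smarca4.4 it was 2, and became 1 with a pseudocount of 1 CPM, 0 with the stricter filter and 1 with a fold of 2. With Smarca4.6 it was 3, and became 5 with no filter, 1 with the stricter filter and 1 with a fold of 2. Between the hairpins it was 1 and became 0 with centring on the median of all genes, median-of-ratios scaling, the pseudocount, the stricter filter and a fold of 2. The filters change which genes are counted, and the pseudocount shrinks low genes. Centring made the day 0 comparison 3 higher and 1 lower (Rara). The median between hairpins changed from -0.23 to 0.031 with no filter. Of 108 alternatives for single genes, 104 stayed within the counting interval. The 4 that moved were pseudocount values between day 0 and Nons, and 2 changed sign, both for Crabp1 between day 0 and Nons (-0.0078 and -0.011). Other scalings shifted all genes by at most 0.073. Few reads (at most 38 for Stra6 and Rarb) limit what can be seen.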
